A study of Mus musculus with 26 samples.

Results

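A set of 10 genes of the autophagy pathway was followed in the proximal small intestine of mice in which a floxed gene had been deleted from the intestinal epithelium. They were Sqstm1, Nbr1 and Optn (receptors), Map1lc3a, Map1lc3b and Gabarapl1 (the LC3 and GABARAP family), Ulk1 and Wipi1 (autophagosome formation), Tfeb (a transcription factor of lysosomal genes) and Bnip3 (a mitophagy receptor), 10 of the 55487 genes in the count table. The 10 were named by function, but they were chosen by a proposal made with the genotype and day comparisons of these same libraries known, and which of those values weighed in it is not recorded. Their values are therefore given as a description. Where one of the 10 is said to pass a threshold, this gives its place among all genes and is no evidence for the gene. Tests are given for 111 other autophagy and lysosome genes, but these lists were also drawn up with results of these libraries known, so their counts are no independent evidence of a direction.

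Knockout mice carried 2 floxed alleles of the target gene and the Villin-creERT2 transgene, which drives a tamoxifen-dependent Cre in epithelial cells of the gut, and control mice were littermates with the same floxed alleles and without the transgene. All were adult mice of 8 to 12 weeks on a C57BL/6N background given tamoxifen on 5 consecutive days, and tissue was taken 3 or 7 days after the last injection. There were 7 knockout and 7 control mice at 3 days and 6 of each at 7 days, with 1 library per mouse. Because the transgene is present only in the knockout mice, an effect of the transgene and an effect of the deletion cannot be told apart. The tissue was homogenized whole, so a library holds RNA of epithelium, connective tissue, immune cells and muscle, and fewer cells of a type and less RNA per cell cannot be told apart.

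Autophagy delivers cytoplasmic material to the lysosome inside a double membrane, the autophagosome. The ULK1 kinase starts the process, WIPI proteins mark the growing membrane, and proteins of the LC3 and GABARAP family are attached to its lipid and hold receptors, which in turn hold the cargo. Receptors such as p62, the product of Sqstm1, are themselves degraded with their cargo, so a transcript level does not give a rate of autophagy. TFEB and its relatives bind a palindromic DNA element in the promoters of many lysosomal genes.

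Libraries held between 3720168 and 6338016 counted reads. Levels are given in CPM, the reads of a gene scaled to a common library total. Here and throughout, CPM was taken over library totals scaled by TMM, edgeR's correction for composition. Enterocyte markers were present in every group, with a summed level of 491.8 to 9381 CPM over 6 genes at 3 days in the knockout mice, 667.4 to 5794 in 3-day controls, 3208 to 4934 in 7-day knockout mice and 7922 to 18835 in 7-day controls. There were 4 libraries with over 5000 CPM of Tff2, a peptide of stomach and Brunner's glands: replicate 1 of the 3-day knockout group, replicates 5 and 7 of the 3-day controls and replicate 2 of the 7-day controls. Results that rest on them, correlations included, are given with and without them.

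At 7 days 6 of the 10 genes passed an adjusted p of 0.05, where 38.5% of all 20259 genes tested did. Sqstm1, Gabarapl1 and Map1lc3a were higher in the knockout mice (3 of 10, where 19.7% of all genes were) and Ulk1, Wipi1 and Tfeb were lower (3 of 10, against 18.8%). The levels of the genotypes did not overlap for 4 of the 10, Sqstm1, Gabarapl1 and Map1lc3a (11.8% of all genes were higher in that way) and Ulk1 (10.5% lower, 22.4% in either direction). None of the 10 passed at 3 days by edgeR or by DESeq2, where 1.43% of 20760 genes did (1.11% higher and 0.323% lower), and 2 of the 10 had an unadjusted p under 0.05. All 10 overlapped between the genotypes at 3 days, where 0.934% of genes did not (0.66% higher and 0.275% lower). The choice of the genes leaves nothing to be read from these counts. The median log2 fold change of the 10 was -0.14 at 3 days and -0.11 at 7 days, beside -0.03 and -0.02 over all genes tested.

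**Figure D1:**
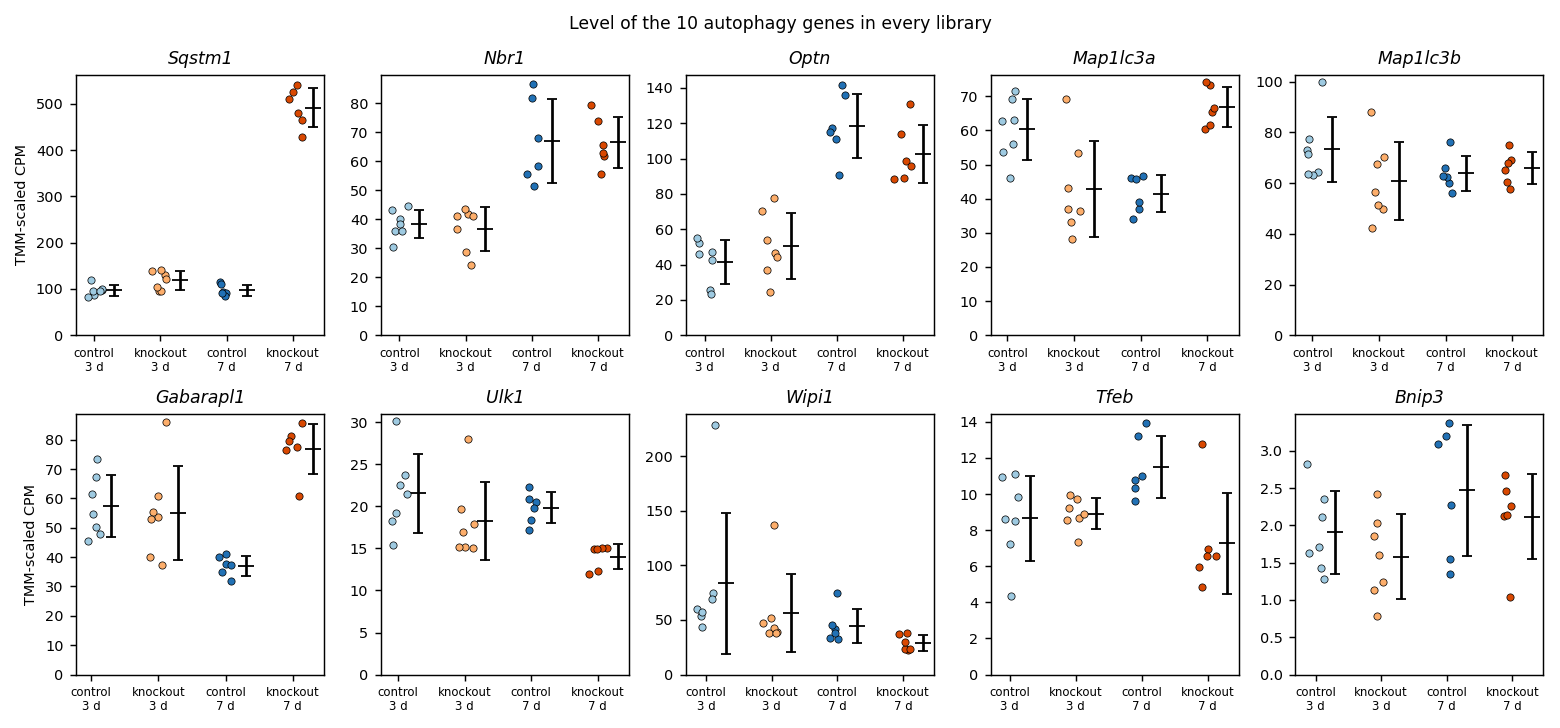
Level of each of the 10 genes in every library, in CPM over TMM-scaled totals, in control (blue) and knockout (orange) mice at 3 days (pale) and 7 days (dark). Each point is 1 mouse and the bar is the mean ± SD (n = 7 per group at 3 days, 6 at 7 days); the 7-day knockout mice stand apart from the other groups for Sqstm1, between 427.5 and 540.3 CPM.

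Sqstm1 encodes p62, the receptor that links ubiquitinated cargo to LC3. It lay at a lowest, median and highest level of 83.7, 96.6 and 120.2 CPM in the 3-day controls and 96.2, 121.7 and 141.8 in the 3-day knockout mice. At 7 days it lay at 84.0, 91.7 and 114.2 CPM in controls and at 427.5, 495.1 and 540.3 in knockout mice. All 6 knockout mice at 7 days were thus above every other mouse of the study, whereas the groups overlapped at 3 days. The log2 fold change was 0.30 (SE 0.12) at 3 days and 2.32 (SE 0.10) at 7 days, and between the days controls differed by 0.06 (SE 0.11).

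Nbr1 encodes a receptor with the same domain plan as p62, and Optn encodes optineurin, a receptor of ubiquitinated bacteria and mitochondria. The genotypes overlapped for both genes at both days. Nbr1 ranged from 51.4 to 86.7 CPM in 7-day controls (median 63.1) and from 55.5 to 79.5 in knockout mice (median 64.1), a log2 difference of -0.03 (SE 0.13). At 3 days it ranged from 30.3 to 44.6 CPM (median 38.3) in controls and from 24.1 to 43.6 (median 40.9) in knockout mice, a log2 difference of -0.05 (SE 0.14). Both genes instead differed between the days.

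Optn lay between 23.2 and 55.2 CPM in 3-day controls (median 45.7) and between 90.7 and 141.7 in 7-day controls (median 116.0), a log2 difference of 1.56 (SE 0.19) with no overlap. For Nbr1 the same comparison gave 0.86 (SE 0.13), again with no overlap. In knockout mice Optn was at 24.4, 46.3 and 77.7 CPM at 3 days and 88.6, 97.3 and 130.8 at 7 days. The genotype difference of Optn was 0.29 (SE 0.25) at 3 days and -0.22 (SE 0.12) at 7 days, and at 7 days it passed the threshold as lower once the Tff2-rich libraries were left out (-0.30).

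The 3 members of the LC3 and GABARAP family did not share a pattern. Map1lc3a, which encodes LC3A, was at 34.2, 42.4 and 46.6 CPM in 7-day controls and at 60.4, 66.0 and 74.1 in 7-day knockout mice. Gabarapl1, whose protein also binds receptors through the LC3-interacting motif, was at 31.7, 37.4 and 41.1 CPM in 7-day controls and at 60.7, 78.4 and 85.8 in 7-day knockout mice. Neither gene overlapped between the genotypes at 7 days, and the log2 fold changes were 0.67 (SE 0.10) for Map1lc3a and 1.03 (SE 0.10) for Gabarapl1.

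Map1lc3b encodes LC3B, the form most used as a marker of autophagosomes. It was at 56.0, 62.6 and 76.3 CPM in 7-day controls and at 57.5, 66.5 and 75.2 in 7-day knockout mice, a log2 difference of 0.03 (SE 0.09). At 3 days it was at 63.2, 71.3 and 99.9 CPM in controls and 42.2, 56.5 and 88.1 in knockout mice (log2 difference -0.26, SE 0.15), and these ranges overlapped as well. A part of its sequence is repeated elsewhere: 12.8% of the 50-base stretches in the last 600 bases of its transcripts also occur in transcripts of other genes.

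At 3 days the level of Map1lc3a was 45.9, 62.9 and 71.5 CPM in controls and 28.2, 37.0 and 69.2 in knockout mice, a log2 difference of -0.48 (SE 0.17) in the direction opposite to that at 7 days. It passed the threshold as lower only when replicate 1 of the 3-day knockout mice, the highest of that group, was left out. Gabarapl1 was at 45.5, 54.8 and 73.5 CPM in 3-day controls and 37.2, 53.6 and 86.1 in knockout mice (log2 difference -0.05, SE 0.17). Between the days, controls fell by 0.48 (SE 0.12) for Map1lc3a and 0.57 (SE 0.12) for Gabarapl1 on the log2 scale. The 7-day genotype difference is therefore set against a control level lower than that at 3 days: the Map1lc3a level of 7-day knockout mice (60.4 to 74.1 CPM) lay within or just above the range of 3-day controls (45.9 to 71.5 CPM).

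Both genes of autophagosome formation were lower in knockout mice at 7 days. Ulk1, the kinase that receives signals from mTORC1 and AMPK, was at 17.2, 20.2 and 22.3 CPM in controls and 11.9, 14.9 and 15.1 in knockout mice, with no overlap (log2 difference -0.51, SE 0.11). At 3 days it was at 15.4, 21.5 and 30.1 CPM in controls and 15.0, 17.0 and 28.0 in knockout mice (-0.22, SE 0.16), which overlapped.

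Wipi1, whose protein binds a phosphoinositide of the forming membrane, varied widely within 3 of the groups. Its level was 43.4 to 228.4 CPM in 3-day controls (median 60.1), 37.8 to 137.2 in 3-day knockout mice (median 43.0), 32.2 to 74.9 in 7-day controls (median 39.7) and 22.2 to 38.1 in 7-day knockout mice (median 26.7). In each of the first 3 groups the highest library was one of those rich in Tff2: 228.4 CPM of Wipi1 beside 39270 of Tff2, 137.2 beside 18195 and 74.9 beside 14028. The other libraries of those groups reached 74.5, 51.6 and 45.5 CPM.

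The log2 difference of Wipi1 between genotypes was -0.56 (SE 0.37) at 3 days and -0.63 (SE 0.20) at 7 days. Without the Tff2-rich libraries it was -0.42 at 3 days, which did not pass the threshold, and -0.43 at 7 days, which did. At 3 days single libraries set its size: it was -0.94 without replicate 1 of the knockout mice and -0.08 without replicate 5 of the controls. With 1 fit over all 26 libraries the 7-day difference did not pass. After each group's mean was subtracted, Wipi1 and the mean log2 level of the stomach markers had a Pearson correlation of 0.82 over the 26 libraries, and Wipi1 and that of the enterocyte markers one of -0.84. Over the 22 libraries not rich in Tff2 the values were 0.49 and -0.53. Sqstm1 and the stomach markers had a correlation of -0.08 over the 26 libraries and -0.80 over the 22. With the acinar markers of the pancreas Sqstm1 had -0.64 and -0.74, and with the enterocyte markers 0.12 and 0.13. These are descriptions of libraries that share their tissue and depth. In 3-day knockout mice the stomach markers other than Tff2 stayed low: Gkn1, Gkn2, Tff1 and Muc5ac reached at most 0.39, 1.51, 7.43 and 0.19 CPM. They reached 754.6, 807.6, 2074 and 63.8 CPM in 3-day controls and 1146, 726.3, 2798 and 129.5 in 7-day controls. The Tff2-rich knockout library can thus not be named stomach tissue from these markers. The part of the Tff2-rich tissue in the differences was not tested.

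**Figure D2:**
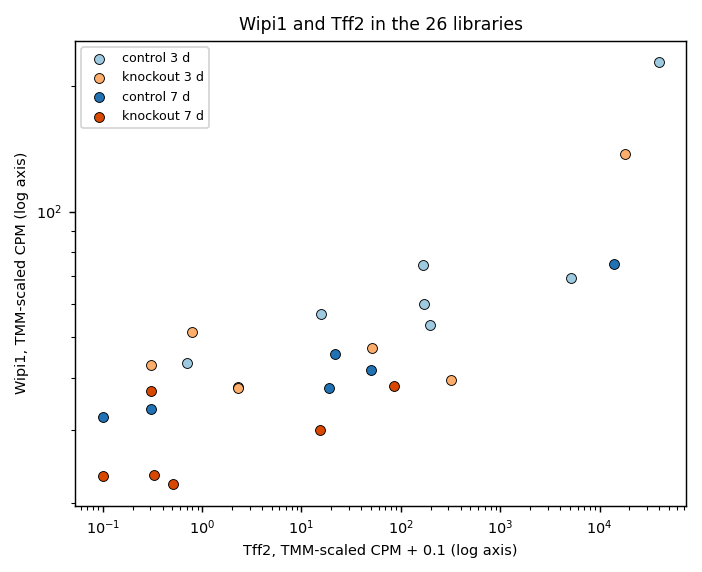
Wipi1 against Tff2 in the 26 libraries, both in CPM over TMM-scaled totals on log axes, with 0.1 added to Tff2 so that libraries without it can be drawn. Each point is 1 mouse; the 3 libraries highest in Tff2 are also the highest of their groups in Wipi1, at 228.4, 137.2 and 74.9 CPM.

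Tfeb was at 9.59, 10.9 and 13.96 CPM in 7-day controls and 4.85, 6.57 and 12.8 in 7-day knockout mice, a log2 difference of -0.69 (SE 0.20). Of the 6 knockout mice 5 lay at 6.95 CPM or less, below all controls, and replicate 3 lay at 12.8. At 3 days the groups overlapped, from 4.34 to 11.1 CPM in controls and 7.34 to 9.97 in knockout mice (0.04, SE 0.18). Without replicate 3 the 7-day difference was -0.91.

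Bnip3, an outer-membrane receptor of mitophagy that responds to hypoxia, was the least detected of the 10, with 4 to 16.5 counts per library. It was at 1.35, 2.68 and 3.37 CPM in 7-day controls and 1.04, 2.20 and 2.68 in knockout mice (log2 difference -0.20, SE 0.31), and at 3 days at 1.28, 1.70 and 2.82 against 0.790, 1.60 and 2.43 (-0.30, SE 0.30). At such counts differences of this size were not detectable, and 19.5% of the 50-base stretches in its last 600 bases also occur in the pseudogenes Gm14506, Gm16439, Gm6532 and Gm9419.

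**Figure D3:**
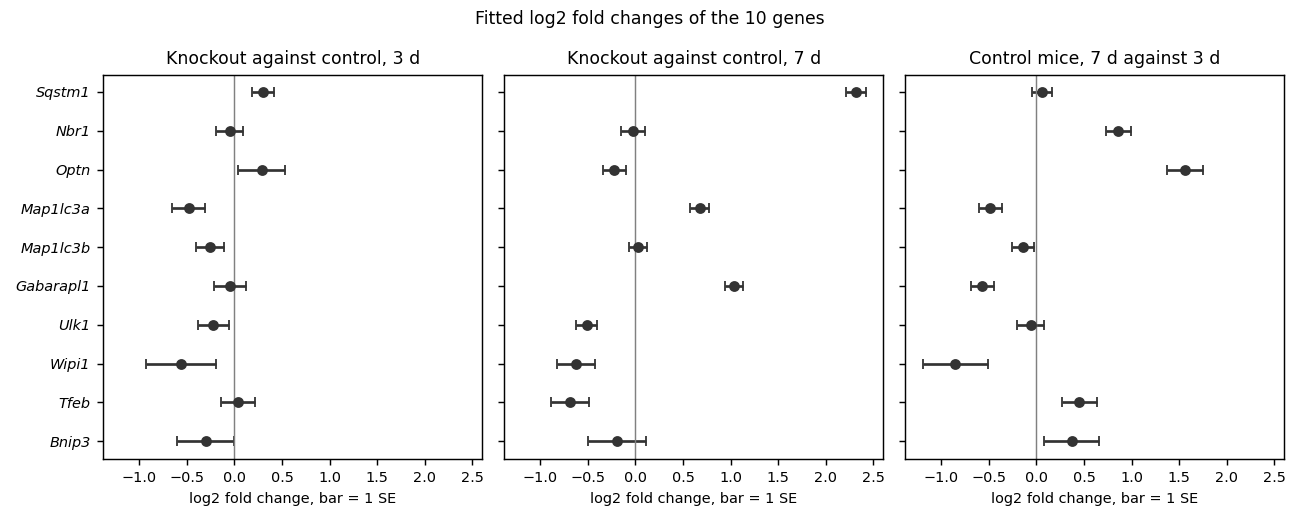
Fitted log2 fold changes of the 10 genes for knockout against control mice at 3 days and at 7 days and for control mice at 7 against 3 days, with bars of 1 SE. Sqstm1 at 7 days (2.32) and Optn in control mice between the days (1.56) are the farthest from 0.

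As a description only, since the same 7-day values were known when the genes were chosen, the genotype difference of 3 of the 10 genes lay past the threshold for a difference between the days, as did that of 18.4% of 19604 genes (8.64% higher and 9.74% lower at 7 days). It was larger at 7 days by 2.04 for Sqstm1, 1.17 for Map1lc3a and 1.09 for Gabarapl1 on the log2 scale.

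In controls alone, 4 of the 10 genes differed between 7 and 3 days, where 36% of 20646 genes did. Optn and Nbr1 were higher (19.7% of all genes were) and Map1lc3a and Gabarapl1 lower at 7 days (16.3%). Optn and Nbr1 did not overlap between the days as higher (9.24% of all genes) and Gabarapl1 as lower (7.05%, and 16.3% in either direction). The levels of cell type markers differed in the same comparison. All 6 enterocyte markers were higher at 7 days, and all 6 smooth muscle markers were lower, with a summed level of 1437 to 2512 CPM at 3 days and 662.4 to 1074 at 7 days. With the smooth muscle level as a covariate none of the 10, and none of all genes, passed in an edgeR fit in which 1957 genes had an unadjusted p under 0.05. The day and the make-up of the tissue cannot be told apart here.

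Between the genotypes at 7 days, 5 of 6 enterocyte markers were lower in the knockout mice and none of the 6 smooth muscle markers differed (edgeR), with summed levels of 777.4 to 1103 CPM in knockout and 662.4 to 1074 in control mice. The acinar markers of the pancreas summed to between 12.3 and 14106 CPM in knockout and between 15.8 and 3960 in control mice at 7 days. Whether these lower marker levels reflect fewer enterocytes, and their part in the 7-day differences, was not tested.

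The 3 genes with the most similar pattern to each member were sought among 9628 genes, by Pearson correlation over the 26 libraries after subtraction of group means. Wipi1 was closest to Slc48a1 (0.94, and 0.75 over the 22 libraries not rich in Tff2), Optn to Eps8l3 (0.93 and 0.90) and Nbr1 to Ndufa1 (0.93 and 0.92). Ulk1 was closest to Csad (0.85 and 0.61), Map1lc3a to Sun2 (0.84 and 0.75), Bnip3 to the defensin gene Defa17 (0.77 and 0.78) and Sqstm1 to Tnfrsf12a (0.74 and 0.69). Among themselves the 45 pairs of the 10 genes had a median of -0.03, from -0.78 for Wipi1 with Optn to 0.71 for Ulk1 with Map1lc3b, and a median of 0.07 over the 22 libraries, from -0.63 to 0.48. The largest correlations of Wipi1 and Ulk1 were thus smaller without the Tff2-rich libraries.

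Promoter sequences from RefSeq (GRCm38.p6, 250 bases before to 50 after the start) were found for 9 of the 10 genes and for 91 of the other 111. They were searched on both strands for TCACGTGA, the palindrome bound by TFEB family factors, and for CACGTG, the E-box inside it. The first occurred in the promoters of 1.12% of all 27025 genes with one, in none of the 9, in 11 of the 91 and in 6 of 20 lysosomal genes. CACGTG occurred in 8.09% of all genes, in 1 of the 9 (Bnip3, 108 bases before the start), in 23 of the 91 and in 9 of the 20. TGATGNAA, the element of ATF4, was in 4.51% of all genes, in none of the 9, in 2 of the 91 and in 2 of the 20. Those 2 were the lysosomal genes Ctsl and Atp6v0d1. A match describes letters and is not a bound site.

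Of the 6 lysosomal promoters that hold the palindrome 4 are shown, as examples of the element, with 1 copy each, although those of Ctsa and Gla hold another; those of Mcoln1 and Atp6v0d1 are not printed. Capitals mark it, and each run is 30 bases read 5′ to 3′ on the strand of the gene. For Ctsd it lay at chr7:142387908-142387937 (minus strand), for Gla at chrX:134601215-134601244 (minus), for Atp6v1a at chr16:44139373-44139402 (minus) and for Ctsa at chr2:164833749-164833778 (plus).
Ctsd: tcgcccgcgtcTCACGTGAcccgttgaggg
Gla: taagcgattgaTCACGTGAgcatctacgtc
Atp6v1a: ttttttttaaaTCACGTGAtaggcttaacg
Ctsa: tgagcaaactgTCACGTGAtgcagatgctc

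Bnip3 is the gene of the 10 with an E-box, and Sqstm1 and Gabarapl1 are those with the largest rise at 7 days. For them the 150 bases before the start are given, at chr7:138909507-138909656 (minus), chr11:50210821-50210970 (minus) and chr6:129533042-129533191 (plus), with CACGTG in capitals in the first and no match of TCACGTGA, CACGTG or TGATGNAA in the others.
Bnip3: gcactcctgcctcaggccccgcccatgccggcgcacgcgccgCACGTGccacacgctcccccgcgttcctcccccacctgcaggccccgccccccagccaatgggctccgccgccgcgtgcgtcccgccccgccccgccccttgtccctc
Sqstm1: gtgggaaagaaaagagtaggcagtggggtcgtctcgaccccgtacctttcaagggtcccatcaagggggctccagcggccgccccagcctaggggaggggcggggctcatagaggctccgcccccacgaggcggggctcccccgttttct
Gabarapl1: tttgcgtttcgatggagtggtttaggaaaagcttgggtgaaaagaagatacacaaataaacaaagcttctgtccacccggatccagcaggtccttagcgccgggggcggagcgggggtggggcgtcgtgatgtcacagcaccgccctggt

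Of the 111 other genes 110 were tested (Calcoco2 was too low). At 7 days 67 of them passed, 51 higher and 16 lower in the knockout mice, or 60.9% against 38.5% of all genes, and their median log2 fold change was 0.28 against -0.02 over all genes. Over all genes 19.7% were higher and 18.8% lower, which is the background of each list below, and no list was tested against it. This background was not matched to the lists by level. With edgeR's filter against low counts 14178 genes were kept at 7 days, of which 3745 were higher and 3643 lower. The shares were thus larger among genes with more counts, and the distance of the lists from them smaller. At 3 days only Sesn2 and Lipa passed (2 of 110, 1.82% against 1.43%), and 15 had an unadjusted p under 0.05.

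**Figure D4:**
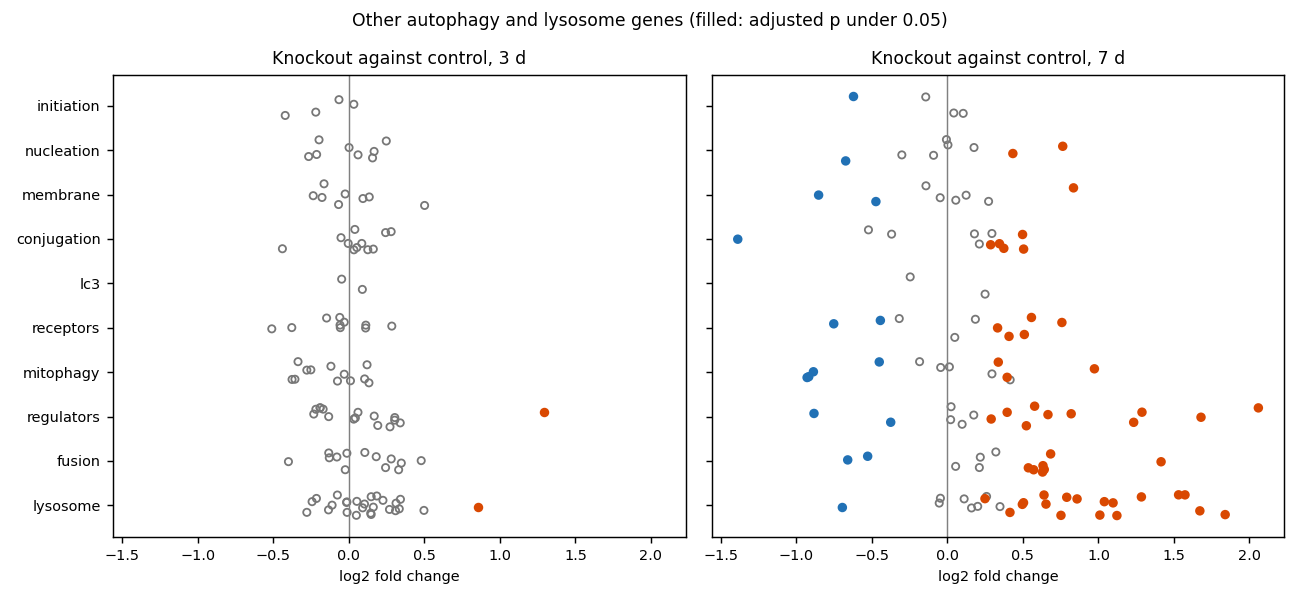
Log2 fold changes of the 110 other autophagy and lysosome genes, one row per gene list, for knockout against control mice at 3 days (left) and 7 days (right). Each point is 1 gene, filled where the adjusted p was under 0.05 (orange higher, blue lower): 2 genes at 3 days and 67 at 7 days.

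Among lysosomal membrane proteins, hydrolases and proton pump genes 18 of 26 rose and 1 fell at 7 days, with a median log2 fold change of 0.65. Ctsl, the protease cathepsin L, lay at 40.6, 43.1 and 44.8 CPM in controls and 124.7, 159.8 and 176.5 in knockout mice (1.84, SE 0.09, edgeR adjusted p = 2.7e-11). Tpp1, a tripeptidyl peptidase, lay at 37.3, 41.0 and 53.7 against 127.9, 142.0 and 156.7 CPM (1.67, SE 0.10, edgeR adjusted p = 5e-10). Neither gene overlapped between the genotypes, and the difference was larger at 7 than at 3 days for both (edgeR adjusted p = 1.8e-07 and 2.9e-08).

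The 6 lysosomal genes with TCACGTGA in the promoter had a median log2 fold change of 0.70 at 7 days, from 0.26 to 1.12, and 4 of them rose. The 14 with a promoter but no match had a median of 0.58, from -0.05 to 1.84, and 11 rose. The ranges overlapped, and Ctsl and Tpp1 were in the second set. That set is not free of the shorter CACGTG, which the promoters of Ctsl, Lamp1 and Glb1 hold.

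Among transcription factors and nutrient signalling genes 10 of 16 rose and 2 fell at 7 days. Sesn2, a leucine sensor that inhibits mTORC1, was at 5.62, 8.91 and 13.3 CPM in 7-day controls and 32.5, 38.3 and 42.6 in knockout mice (2.06, SE 0.16, edgeR adjusted p = 7.4e-09). It also rose at 3 days, by 1.29 (SE 0.22, edgeR adjusted p = 0.0049). Its 3-day ranges overlapped, from 5.28 to 9.87 CPM in controls and 7.90 to 25.5 in knockout mice. The overlap came from replicate 1 of the knockout mice alone, a Tff2-rich library, and the other knockout mice lay at 15.3 to 25.5 CPM. The 3-day rise still passed without the Tff2-rich libraries. The 3-day call was lost with the replicate number as a block. Fnip2, partner of folliculin, rose by 1.68 (SE 0.20, edgeR adjusted p = 1.5e-06) at 7 days. Foxo3 and Foxo1, transcription factors restrained by insulin signalling, fell by 0.88 (SE 0.12, edgeR adjusted p = 1.3e-05) and 0.38 (SE 0.11, edgeR adjusted p = 0.013).

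Of 13 fusion genes 7 rose and 2 fell. Epg5, a tether between autophagosome and lysosome, rose by 1.41 (SE 0.14, edgeR adjusted p = 1.8e-07) and Rab7, the small GTPase of late endosomes, by 0.68 (SE 0.10, edgeR adjusted p = 2e-05). The membrane-fusion proteins Vamp8 and Stx17 fell by 0.66 (SE 0.11, edgeR adjusted p = 0.0001) and 0.53 (SE 0.11, edgeR adjusted p = 0.00075).

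Of 12 mitophagy genes 3 were higher and 4 lower at 7 days, where 19.7% and 18.8% of all genes were. Pink1, the kinase that marks depolarized mitochondria, was at 56.6, 73.7 and 94.9 CPM in controls and 34.1, 39.3 and 45.6 in knockout mice (-0.93, SE 0.12, edgeR adjusted p = 7.7e-06). Nipsnap1 fell by 0.92 (SE 0.13, edgeR adjusted p = 2e-05), while its relative Nipsnap2 rose by 0.97 (SE 0.08, edgeR adjusted p = 2e-08), from a median of 46.7 to 96.4 CPM. Phb2, a prohibitin of the inner membrane, rose by 0.40 (SE 0.09, edgeR adjusted p = 0.0019).

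Of the other receptors 5 of 10 rose and 2 fell, the latter close to the 18.8% of all genes. Tollip, an adaptor of ubiquitinated cargo, rose by 0.76 (SE 0.14, edgeR adjusted p = 0.00034) and Tex264, an endoplasmic reticulum receptor, by 0.56 (SE 0.14, edgeR adjusted p = 0.0034). Calcoco1 and Ccpg1, which also act at that organelle, fell by 0.75 (SE 0.17, edgeR adjusted p = 0.0013) and 0.44 (SE 0.12, edgeR adjusted p = 0.0072). Gabarap and Gabarapl2, the family members outside the 10, did not pass at 7 days (0.25, SE 0.12, and -0.25, SE 0.16).

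Conjugation enzymes rose in 5 and fell in 1 of 11 cases. Atg12 rose by 0.50 (SE 0.09, edgeR adjusted p = 0.0003). Atg10 rose by 0.50 (SE 0.17, edgeR adjusted p = 0.027), a call that was lost in 5 of the 12 fits that left out 1 mouse, and Atg16l2 fell by 1.39 (SE 0.19, edgeR adjusted p = 1.2e-05), from a median of 19.0 to 6.65 CPM. In the lists of autophagosome formation, beside 38.5% of all genes, there passed 1 of 4 for the kinase complex (Atg13, -0.63, SE 0.15, edgeR adjusted p = 0.0021), 3 of 8 for the PI3K complex and its regulators and 3 of 8 for the WIPI, ATG2 and ATG9 genes. Uvrag, Atg14 and Vmp1 rose by 0.76, 0.43 and 0.83, and Rubcn, Atg9a and Tmem41b fell by 0.67, 0.85 and 0.47.

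Lipa, lysosomal acid lipase, was at 17.9, 19.8 and 30.8 CPM in 3-day controls and 23.1, 33.9 and 59.8 in knockout mice, a rise of 0.86 (SE 0.21, edgeR adjusted p = 0.048), and it rose by 0.50 at 7 days (SE 0.13, edgeR adjusted p = 0.0037). Its ranges overlapped at 3 days, and it no longer passed in most of the fits that left out 1 library.

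Exons of 5 of the 10 genes overlap a gene on the other strand in the GENCODE M21 annotation of GRCm38: Sqstm1 (chr11:50199366-50210827) with Mrnip, Gabarapl1 with 1700101I11Rik, Map1lc3b with Zcchc14, Optn with 4930551O13Rik and Bnip3 with Gm45507. No use of strand in counting is stated, so reads of such pairs cannot be told apart, and a read that overlaps both is shared between them. Fractional counts occurred in 61.5% of libraries for Sqstm1 and in none for Nbr1, Ulk1, Tfeb and Map1lc3a.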

How the data were processed

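RNA of whole proximal small intestine from 26 mice was sequenced from the 3′ end (QuantSeq FWD). The authors clipped adapters with Cutadapt 2.10, aligned reads to GRCm38 with Subread, and counted exons with featureCounts 2.0.1; the deposited values are estimated counts (95.0% whole), a read over several genes being divided. The deposited CPM table, counts over the library total, served only as a check. Counts were rounded and tested with edgeR 4.0.16 (R 4.3.3, quasi-likelihood, TMM, Benjamini-Hochberg), separately for each day, as in the study's design, which used DESeq2; genes at 0 in most libraries of either group were left out. The difference between days was fitted over all 26 libraries. No column of samples was left out. DESeq2 1.42.0 was an alternative.

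The members and lists were chosen with earlier results of these data known. Other genes were named where they passed at 3 days, or were among the 2 largest rises and falls of their list at 7 days, with a mean of at least 20 counts; genes outside that rule (Gabarap, Gabarapl2, markers) are given for context and were chosen after values were seen. Levels were first taken as CPM over the library total alone and were then changed, after those values had been seen, to totals scaled by TMM (factors 0.838 to 1.18). These factors were computed once over all libraries. Each fit computed its own TMM factors from its libraries and filtered genes, so levels and fold changes are not on exactly the same scale. Libraries rich in Tff2 were also defined after the data were seen. Replicates are separate mice. Results for the deleted gene and for 1 lysosomal gene are not reported here. On simulated counts 200 genes were changed, 100 of them 2-fold, all drawn from genes with a mean over about 20 counts. Of the 2-fold changes the tests recovered 72% (3 days), 87% (7 days), 80% (control mice between the days) and 42% (difference between days). These rates do not cover genes with fewer counts, such as Bnip3, or smaller changes. In the data 7790 genes passed at 7 days, 7441 between the days of controls and 3603 for the difference between days. The cut-off of the adjusted p depends on how many genes change, so the simulated rates need not hold for those comparisons.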

Additional observations from a re-analysis of the deposited data

Results flagged for a closer look

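Single libraries stood apart in their group in 24 of 156 sets of values (Dixon's test at 95%, by which chance gives about 1 in 20, or 7.8), and 21 did on CPM without TMM factors. Replicate 5 of the 3-day controls, rich in Tff2, accounted for 8: it held 228.4 CPM of Wipi1 (others 43.4 to 74.5), 99.9 of Map1lc3b (63.2 to 77.4), 120.2 of Sqstm1 (83.7 to 99.1), 29.1 of Atg13, 36.0 of Tex264, 71.8 of Ccpg1, 15.6 of Fnip2 and 94.2 of Stx17. Replicate 1 of the 3-day knockout mice, also rich in Tff2, accounted for 5: 28.0 CPM of Ulk1 (others 15.0 to 19.7), 137.2 of Wipi1, 21.2 of Atg14, 58.3 of Ccpg1 and a low 12.6 of Tollip (others 28.5 to 40.4). Replicate 2 of the 7-day controls, again rich in Tff2, held 74.9 CPM of Wipi1.

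The remaining values came from libraries without that much Tff2. In 7-day knockout mice Gabarapl1 was low at 60.7 CPM in replicate 4 (others 76.6 to 85.8), Bnip3 low at 1.04 in replicate 2 and Tfeb high at 12.8 in replicate 3 (others 4.85 to 6.95). High values in 7-day controls were 78.5 CPM of Tollip in replicate 3 and 91.5 of Foxo3 in replicate 5. In 3-day controls they were 58.3 CPM of Pink1 in replicate 1, 93.1 of Ctsl in replicate 2, and 62.6 of Foxo1 and 30.8 of Lipa in replicate 4. Replicate 5 of the 3-day knockout mice held 140.7 CPM of Vamp8.

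The genotype difference lay past the threshold for a difference between the days (interaction term of an edgeR fit over all libraries, adjusted p under 0.05) for 18 of 39 named genes, where 18.4% of all genes did. Most of these genes were named for the size of their change at 7 days, and the 10 were chosen with it known, so the selection largely sets that count and nothing is read from it. It was larger at 7 than at 3 days, on the log2 scale, by 2.04 for Sqstm1, 1.17 for Map1lc3a, 1.09 for Gabarapl1, 1.75 for Ctsl, 1.55 for Tpp1, 1.53 for Fnip2, 0.98 for Nipsnap2, 0.96 for Epg5, 0.83 for Tollip, 0.78 for Uvrag, 0.66 for Atg14 and 0.42 for Rab7. It was lower at 7 days for Atg16l2 (-0.94), Atg9a (-0.66), Foxo3 (-0.65), Nipsnap1 (-0.65), Vamp8 (-0.62) and Pink1 (-0.54). The calls of Tollip and Atg9a were lost under 11 and 12 of the other settings, mostly when 1 mouse was left out, those of Rab7 and Pink1 under 2 and that of Nipsnap1 under 1.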

How the results depend on the processing

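No called genotype difference of the 10 genes or of the other named genes changed sign in any alternative run. For the 111 other genes at 3 days the count of 2 was 5 with DESeq2, with all 26 libraries in 1 fit, with the smooth muscle level as covariate and without the Tff2-rich libraries, 1 without a filter and with acinar and stomach covariates, and 0 with the replicate number as a block; leaving out each mouse gave 1 to 7, the 7 without replicate 1 of the 3-day knockout mice. The 10 genes at 3 days gave 0 to 1 when each mouse was left out, the 1 being Map1lc3a. In control mice between the days both counts, 4 and 52, went to 0 with the smooth muscle covariate. Leaving out each mouse gave 6 to 7 of the 10 and 61 to 69 of the others at 7 days, 4 to 5 and 41 to 51 between the days of controls, and 3 to 4 and 32 to 39 for the difference between days. All genes called at 3 days numbered 230 higher and 67 lower, 79 and 20 with the replicate block and 536 and 250 with DESeq2. Deviations from the group means had correlations of -0.262 to 0.288 between same-numbered mice of the 2 genotypes. Low values here cannot settle whether the number pairs mice, such as by litter or handling. With the block 6 of the 10 and 65 of the others passed at 7 days.

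On CPM without TMM factors, the scale first used, the same 4 of the 10 genes did not overlap at 7 days, but between the days of controls Optn was higher and Map1lc3a, Map1lc3b and Gabarapl1 were lower without overlap, where 3.94% of genes were higher and 15% lower, against 9.24% and 7.05% on the scale reported. Wipi1 in controls between the days (-0.85) passed under 7 of the alternatives and leave-outs. Depth limits Bnip3, with 4 to 16.5 counts per library.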
